A study of Bos taurus with 8 samples.

Results

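The 10 genes described here encode surface and effector proteins of T lymphocytes, namely CD3D, CD3E, CD3G, CD2, CD5, CD6, CD4, CD8A, ICOS and GZMB, out of 17427 gene symbols on the array. They were taken by name, as all noncontrol probes of a bovine one-colour Agilent array whose gene name or description gave one of these symbols, which found 26 of 43653 probes. Of these, 14 probes of 9 genes were well above background on at least 4 of 8 arrays and were tested, among 31108 tested probes in all. The 14 include a probe that the array calls GZMB at a second locus, LOC508646 in RefSeq. Neither of the 2 CD6 probes was well above background on any array.

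Each array held endometrium of a different cow, biopsied on day 7 after standing estrus from the horn next to the ovary that carried the corpus luteum. One group of 4 cows had received 5 mM methylglyoxal in each uterine horn on day 1, in a volume of 25 mL, and the other 4 had received the same volume at 0 mM. Methylglyoxal is a reactive by-product of glycolysis that glycates proteins. The study set the groups side by side to learn what methylglyoxal in the uterus does to endometrial transcripts.

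The T cell receptor recognises peptides held by MHC molecules but cannot signal by itself. CD3D, CD3E and CD3G are the delta, epsilon and gamma chains of the CD3 complex that relays its signal, while CD4 and CD8A are coreceptors that bind MHC class II and class I molecules. CD2 is an adhesion receptor, CD5 and CD6 are scavenger-receptor-type regulators of T cell receptor signalling, ICOS is a costimulatory receptor induced on activated T cells, and GZMB is granzyme B, a protease of cytotoxic granules. In the endometrium, T cells lie among stromal cells and between epithelial cells.

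The probes of a gene did not all report alike, so those on which the readings turn are given first, 5′ to 3′, with coordinates on the HGSC Btau_3.1 build of the array. The first pair belongs to CD3D and lies on the minus strand at chr15:27453348-27453408 and chr15:27452806-27453285, the second of them across an interrupted stretch of the genome. The CD3G probe at chr15:27462352-27462411 and the GZMB probe at chr21:34820734-34820793, both on the plus strand, stand for the CD3 chains and the effector gene. The CD4 probe at chr5:10623647-10623706 on the minus strand is shown because it was not well above background on any array, while another CD4 probe was on all 8. Capitals mark AATAAA, the letters of the common polyadenylation signal, which on the sense strand occurred in 2 of the 26 probes and in 9.35% of all 43653 probes.
CD3D probe 1: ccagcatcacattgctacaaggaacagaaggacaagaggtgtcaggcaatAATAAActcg
CD3D probe 2: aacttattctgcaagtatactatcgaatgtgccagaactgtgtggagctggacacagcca
CD3G probe 2: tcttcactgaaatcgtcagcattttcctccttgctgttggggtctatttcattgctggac
GZMB probe 1: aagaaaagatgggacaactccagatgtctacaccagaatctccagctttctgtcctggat
CD4 probe 1: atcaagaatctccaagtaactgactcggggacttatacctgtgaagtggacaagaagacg

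Stretches of 2 further probes are shown because their letters recur on the array, and here capitals mark a run of 16 bases or more that another probe also holds. The CD3D probe nearest the 3′ end, at chr15:27451220-27451279 on the minus strand, shares 1 run with a probe named UNCX and another with a probe named NXPE4. The GZMB probe at chr21:34820861-34820920 on the plus strand shares 21 bases with a probe named LOC508858. Values of both probes are therefore uncertain as measures of 1 gene.
CD3D probe 3, first run: tgggatttaTTTTAAAAATACAGTG
CD3D probe 3, second run: acttcccTGGCAGTCCAGTGGTTA
GZMB probe 2: agtgtgtgaAGGAAGGTTGCCTGGAACTTA

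Across the series, between 68.3% and 73.3% of noncontrol spots were well above background per array, no spot was saturated, and arrays correlated with each other at 0.880 to 0.988. Signals below are log2 values above or below the array's own 75th percentile, so that 0 is that percentile, and differences are 5 mM minus 0 mM on the log2 scale. Because probes differ in how brightly they hybridise, levels are not compared between probes. No probe of the array passed the test between the groups. By limma, with Benjamini-Hochberg adjustment over all tested probes, the number with an adjusted p under 0.05 was 0 of 31108 (0.0%), the smallest adjusted p was 0.913, and 595 probes (1.91%) had an unadjusted p under 0.05. One array, 5 mM replicate 1, stood apart, with epithelial markers at a mean of -3.41 against 0.28 to 0.86 on the other 7 arrays, all relative to the mean of the 8. The array with the highest T cell signals was 0 mM replicate 2.

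T cell transcripts had lower mean signals in the 5 mM group for most of the genes, without any difference that passed the test. Of the 14 tested probes, 12 had a lower mean in cows given 5 mM, against 46.9% of all tested probes, and the median difference was -0.79, against 0.02 for all tested probes. By the brightest probe of each gene, 7 of 9 genes were lower, against 48.4% of all genes, with a median of -0.86. Means were at least 2-fold lower for 4 of the 14, against 3.96% of all probes. With normexp background correction these 4 were smaller, at -0.29 for CD3D probe 2, -0.62 for CD3G probe 3, -0.26 for CD5 and -0.47 for ICOS. CD3D probe 2 and CD5 were well above background in 2 of 4 cows given 5 mM and in 4 of 4 given 0 mM, and ICOS in 3 of 4 and 4 of 4. Only CD3D probe 2 had an unadjusted p under 0.05 (1.91% of all probes did), its adjusted p was 0.913, and the adjusted p of the 14 ran from 0.913 to 0.978. The 2 groups failed to overlap for 0 of the 14, against 1.54% of all tested probes. In a biopsy of mixed tissue, fewer T cells and less RNA per T cell cannot be told apart.

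**Figure D1:**
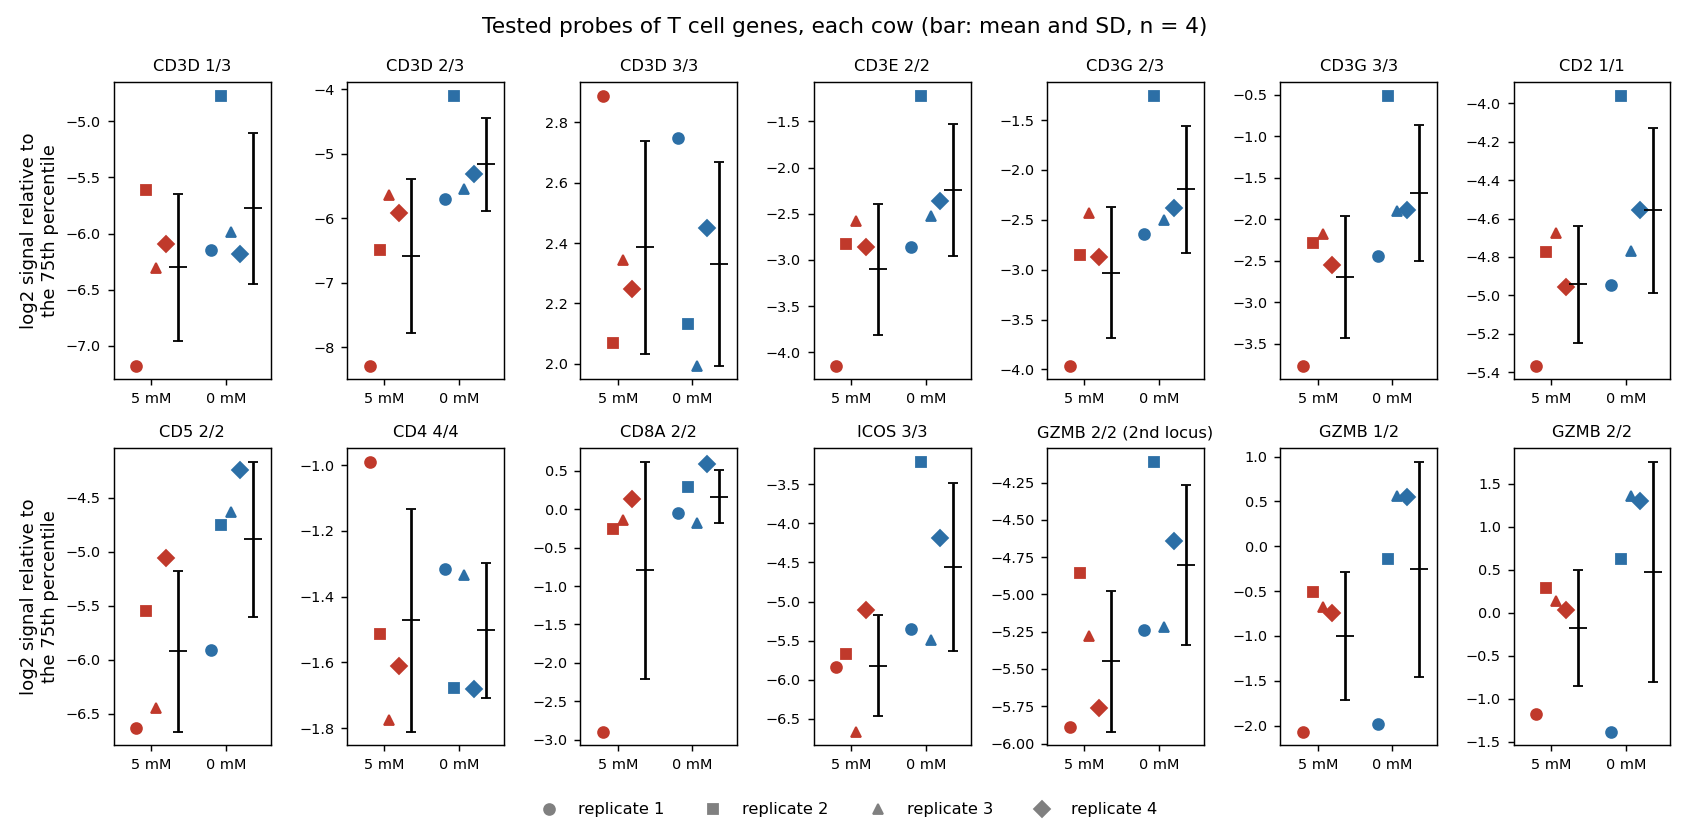
Log2 signal relative to the 75th percentile of the array (vertical axes, each with its own range) for the 14 tested probes, named by gene and by probe number from the 5′ end, with 5 mM cows in red left of 0 mM cows in blue, marker shapes for replicate numbers, and bars for mean and SD (n = 4). The red circle of 5 mM replicate 1 is the lowest point in 10 of the 14 panels and the blue square of 0 mM replicate 2 the highest in 8, while for CD4 and CD3D 3/3 the red circle is the highest.

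The 3 CD3 chains are encoded close together on chromosome 15, and each had at least 1 probe with a lower mean signal in cows given 5 mM. CD3E probe 2, at chr15:27446810-27446869, read -4.15, -2.83, -2.58 and -2.86 in 5 mM replicates 1 to 4, against -2.86, -1.22, -2.53 and -2.36 in 0 mM replicates 1 to 4. Replicate 1 of the 5 mM group lay below all other cows and 0 mM replicate 2 above them, while the other 6 cows lay within -2.86 to -2.36. The difference was -0.86 ± 0.45 (SE, limma, unadjusted p = 0.0919, adjusted p = 0.913). Leaving out 5 mM replicate 1 gave -0.51, and leaving out 0 mM replicate 2 gave -0.52.

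CD3G probe 3, at chr15:27464716-27464775, showed the same order of extremes. Its signals were -3.77, -2.28, -2.17 and -2.55 in 5 mM replicates 1 to 4, against -2.44, -0.51, -1.90 and -1.89 in 0 mM replicates 1 to 4. The difference was -1.01 ± 0.49 (SE, unadjusted p = 0.0734), and CD3G probe 2, printed above, differed by -0.83 ± 0.41. Of the 4 cows given 5 mM, 2 lay below all cows given 0 mM by probe 3 and 3 did so by probe 2. Without 0 mM replicate 2 the differences were -0.62 for probe 3 and -0.52 for probe 2, and without 5 mM replicate 1 they were -0.65 and -0.52.

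CD3D gave 3 unlike readings. Probe 2 read -8.29, -6.49, -5.64 and -5.92 in 5 mM replicates 1 to 4, against -5.70, -4.10, -5.54 and -5.31 in 0 mM replicates 1 to 4. Here 3 of the 4 cows given 0 mM lay above all cows given 5 mM. The difference was -1.42 ± 0.61 (SE, unadjusted p = 0.0490, adjusted p = 0.913), with a 95% interval from -2.84 to -0.0076. The probe was well above background in 2 of the 4 cows given 5 mM and in all 4 given 0 mM. With normexp background correction the difference was -0.29, and it was -0.86 without 5 mM replicate 1.

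CD3D probe 1 read -7.18, -5.61, -6.31 and -6.10 in 5 mM replicates 1 to 4, against -6.15, -4.78, -5.98 and -6.19 in 0 mM replicates 1 to 4, a difference of -0.53 ± 0.42 (SE). Leaving out 0 mM replicate 2 gave -0.19, leaving out 5 mM replicate 1 gave -0.23, and normexp gave -0.08. The probe was also well above background in 2 of 4 cows given 5 mM and in 4 of 4 given 0 mM. Probe 3, which holds the recurring letters, read 2.89, 2.07, 2.34 and 2.25 in 5 mM replicates 1 to 4, against 2.75, 2.13, 1.99 and 2.45 in 0 mM replicates 1 to 4. The groups lay over each other, with a difference of 0.06 ± 0.24 (SE, unadjusted p = 0.820). On probe 3 the array of 5 mM replicate 1 was the highest of the 8, and on probes 1 and 2 it was the lowest.

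The adhesion and regulatory receptors were represented by CD2 and CD5. CD2, by its only probe at chr3:28817870-28817929, read -5.37, -4.78, -4.67 and -4.95 in 5 mM replicates 1 to 4, against -4.95, -3.96, -4.77 and -4.55 in 0 mM replicates 1 to 4. The difference of -0.39 ± 0.25 (SE, unadjusted p = 0.167) had a 95% interval from -0.97 to 0.20, and it was -0.19 without 0 mM replicate 2 and -0.14 with normexp. CD2 kept the order of extremes of the CD3 chains.

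CD5 probe 2, at chr29:39183936-39183995, read -6.64, -5.55, -6.45 and -5.06 in 5 mM replicates 1 to 4, against -5.91, -4.75, -4.63 and -4.24 in 0 mM replicates 1 to 4. In 3 of the 4 cows given 0 mM the signal was above that of all cows given 5 mM, and 0 mM replicate 1 lay among the cows given 5 mM. The difference was -1.04 ± 0.46 (SE, unadjusted p = 0.0545), -0.80 without 5 mM replicate 1 and -0.26 with normexp. The probe was well above background in 2 of 4 cows given 5 mM and in 4 of 4 given 0 mM. The CD6 probes, on the same chromosome at chr29:39085150-39085761 and chr29:39088475-39091137, gave no level to compare in either group, since neither was well above background on any array.

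Among the coreceptors, CD8A had a lower mean in the 5 mM group and CD4 a mean close to that of the 0 mM group. CD8A probe 2, at chr11:49858974-49859033, read -2.90, -0.26, -0.14 and 0.13 in 5 mM replicates 1 to 4, against -0.05, 0.29, -0.18 and 0.59 in 0 mM replicates 1 to 4. Replicate 1 of the 5 mM group lay far below the rest, and the other 7 lay within -0.26 to 0.59. The difference of -0.96 ± 0.64 (SE, unadjusted p = 0.174) was -0.25 without 5 mM replicate 1. CD8B, the partner chain of CD8A, differed by -0.32 ± 0.52 (SE).

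CD4 probe 4, at chr5:10615420-10615479, read -0.99, -1.51, -1.77 and -1.61 in 5 mM replicates 1 to 4, against -1.32, -1.68, -1.33 and -1.68 in 0 mM replicates 1 to 4. The groups overlapped over nearly their whole range, and 5 mM replicate 1, the lowest cow for most T cell genes, was here the highest. The difference was 0.03 ± 0.20 (SE, unadjusted p = 0.885), with a 95% interval from -0.44 to 0.50, and its sign turned to -0.13 without 5 mM replicate 1 and to -0.11 with normexp. In humans and rats, CD4 is also made by monocytes and macrophages. The other 3 CD4 probes lie nearer the 5′ end, and of these 2 were well above background on no array and 1 on a single array.

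ICOS probe 3, at chr2:97045943-97046002, read -5.84, -5.67, -6.66 and -5.11 in 5 mM replicates 1 to 4, against -5.35, -3.21, -5.48 and -4.18 in 0 mM replicates 1 to 4. Here 3 of the 4 cows given 5 mM lay below all cows given 0 mM, and the lowest of them was replicate 3, not replicate 1. Signals of this probe were well above background in 3 of 4 cows given 5 mM and in 4 of 4 given 0 mM. The difference was -1.26 ± 0.55 (SE, unadjusted p = 0.0516), also -1.26 without 5 mM replicate 1, but -0.81 without 0 mM replicate 2 and -0.47 with normexp. The other 2 ICOS probes, nearer the 5′ end, were well above background on 1 array and on 0 arrays. In CD3E, CD3G, CD5, CD4, CD8A and ICOS alike, the probe nearest the 3′ end was the one well above background on the most arrays or on as many as any other.

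The effector gene GZMB followed another order of cows. Probe 1 read -2.07, -0.51, -0.68 and -0.74 in 5 mM replicates 1 to 4, against -1.98, -0.15, 0.56 and 0.54 in 0 mM replicates 1 to 4. Replicate 1 was low in both groups, and the other 3 cows given 0 mM lay above all cows given 5 mM. The arrays of both these cows shared a slide, within which the difference was -0.087. The difference over all cows was -0.75 ± 0.61 (SE, unadjusted p = 0.260), -0.39 without 5 mM replicate 1 and -1.32 without 0 mM replicate 1.

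GZMB probe 2, part of which recurs in LOC508858, read -1.17, 0.29, 0.14 and 0.03 in 5 mM replicates 1 to 4, against -1.38, 0.62, 1.36 and 1.30 in 0 mM replicates 1 to 4, a difference of -0.65 ± 0.64 (SE). It was 0.21 within the slide of the replicate 1 cows, -0.32 without 5 mM replicate 1 and -1.27 without 0 mM replicate 1. A second locus that the array also calls granzyme B, on the minus strand at chr21:34983314-34983373, is LOC508646 in RefSeq. Its brighter probe differed by -0.64 ± 0.33 (SE, unadjusted p = 0.0865), with its lowest signal, -5.89, in 5 mM replicate 1 and its highest, -4.11, in 0 mM replicate 2. Signals of such close relatives cannot be fully separated by 1 probe, so the GZMB values are uncertain in that respect.

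**Figure D2:**
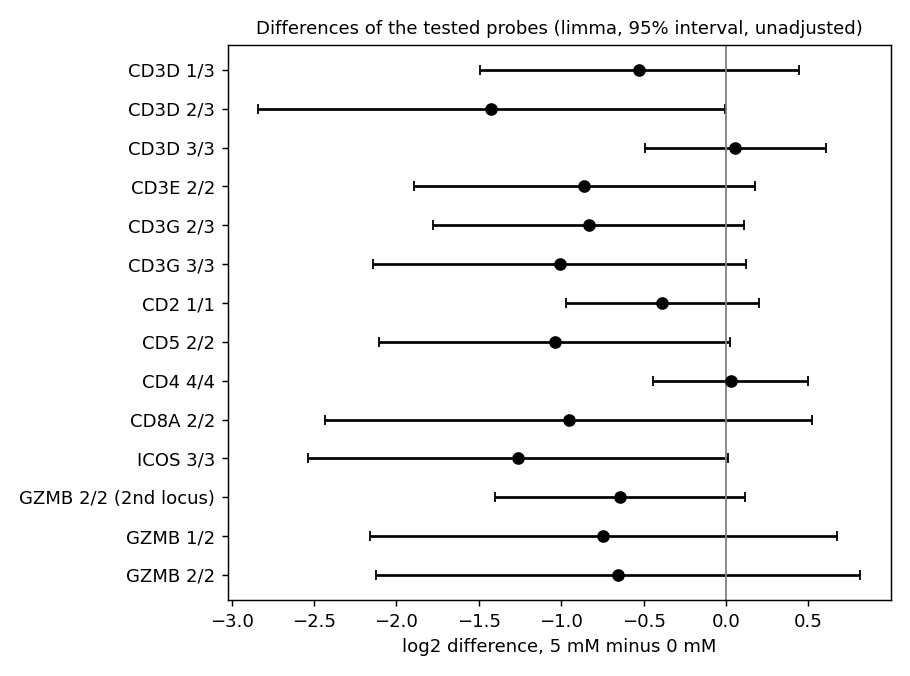
Differences of the 14 tested probes (horizontal axis, log2, 5 mM minus 0 mM) with unadjusted 95% intervals from limma, named by gene and by probe number from the 5′ end. Only the interval of CD3D 2/3, from -2.84 to -0.0076, leaves out 0, and CD3D 3/3 and CD4 lie at 0.06 and 0.03.

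The slides on which arrays were hybridised held both groups. The median difference of the 14 probes was -0.69 on the slide with 1 array of each group, -0.71 on the slide with a single 5 mM array, -0.47 on the slide with a single 0 mM array, and -0.78 with slide as a block. With slide as a block 4 of the 14 had an unadjusted p under 0.05, and so did 3.3% of all probes in that fit. Without 5 mM replicate 1 the median was -0.44 and without 0 mM replicate 2 it was -0.56, and in each of these fits all 14 probes had a lower mean in the 5 mM group, against 47.0% and 46.6% of all probes.

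CD3E, CD3G and CD2 varied together across cows, while CD4 and the third CD3D probe did not follow them. Taking the brightest probe of each of the 9 genes gave 36 pairs over the 8 cows, with a median Pearson's r of 0.58. This median r was 0.27 without the 2 cows farthest from the median, 0.37 without 5 mM replicate 1 and 0.38 without 0 mM replicate 2. CD3E and CD3G correlated at r = 0.994 (Spearman's rho = 0.976, exact permutation p = 9.9e-05 for r and 0.00040 for rho, 0.0036 and 0.0071 after Benjamini-Hochberg adjustment over the 36 pairs). CD3E and CD2 correlated at r = 0.976 (rho = 0.952, exact permutation p = 0.00030 and 0.0011, adjusted 0.0042 and 0.014), and CD3G and CD2 at r = 0.978 (rho = 0.976, exact permutation p = 0.00035 and 0.00040, adjusted 0.0042 and 0.0071). These were the 3 pairs whose r passed. Without the 2 cows farthest from the median their r was 0.926, 0.889 and 0.828, and after centring each group on its own mean it was 0.992, 0.969 and 0.976. With normexp r was 0.970, 0.762 and 0.638, and both pairs with CD2 no longer passed (adjusted exact permutation p = 0.133 for CD3E with CD2).

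By the brightest probes, 7 of the 8 pairs with CD4 had a negative r, and the pair with CD3D had r = 0.557 (rho = 0.214, exact permutation p = 0.154 and 0.619, adjusted 0.179 and 0.656), which turned to -0.790 without the 2 cows farthest from the median. None of the 8 passed (lowest adjusted exact permutation p = 0.114). With CD3E its r was -0.742 (rho = -0.690, exact permutation p = 0.0452 and 0.0694, adjusted 0.143 and 0.178), and with CD8A it was -0.821 (rho = -0.619, exact permutation p = 0.0187 and 0.115, adjusted 0.114 and 0.238). Without the 2 cows farthest from the median these values were -0.356 and -0.459. Without them the r of CD4 was also below 0 with CD2 (-0.552), CD5 (-0.547), ICOS (-0.109) and CD3G (-0.073). With GZMB it turned from -0.564 to 0.445. CD3D gave r = -0.636 with CD3E by its brightest probe, and r = 0.968 by its second probe, which was tried after the values were known. Without the 2 cows farthest from the median these were -0.070 and 0.733, and the second probe gave 0.558 with CD3G and 0.418 with CD2. This second probe was well above background on 6 of the 8 arrays. With that second probe, 5 pairs passed, all 28 pairs without CD4 were positive (0.370 to 0.994) and all 8 pairs with CD4 were negative (-0.821 to -0.282).

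**Figure D3:**
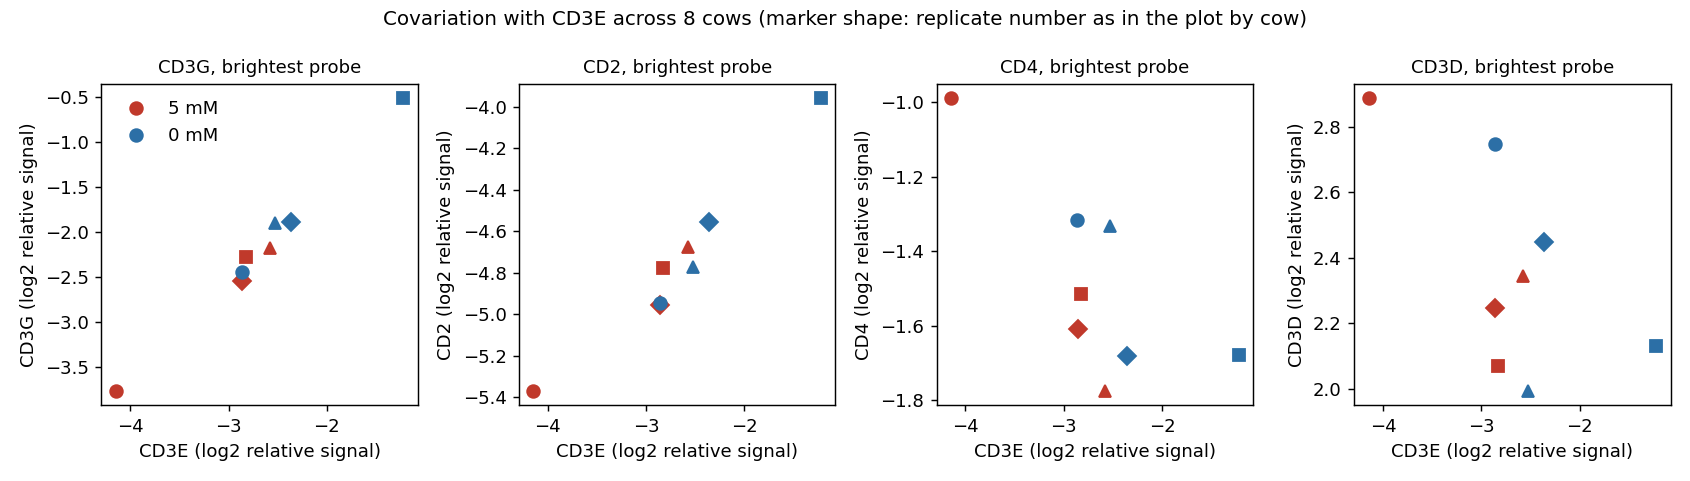
Log2 relative signal of CD3G, CD2, CD4 and CD3D (vertical axes) against that of CD3E (horizontal axes), each by the brightest probe, 1 point per cow, 5 mM in red and 0 mM in blue. CD3G (r = 0.994) and CD2 (r = 0.976) lie close to a line with 5 mM replicate 1 at the bottom left and 0 mM replicate 2 at the top right, while CD4 and CD3D have r = -0.742 and r = -0.636, neither of which passed.

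Outside the T cell lists, the 6 genes whose signals followed the mean of the 3 CD3 chains most closely over the 8 cows, among 12282 genes, were EVI2A (r = 0.973), TNF (0.967), ISG20 (0.963), TSHB (0.962), GRO1 (0.960) and TRAF3IP3 (0.957). TNF encodes the cytokine tumour necrosis factor, ISG20 an interferon-induced exonuclease, TSHB the beta chain of thyroid-stimulating hormone and GRO1 a neutrophil-attracting chemokine. The CD3 mean itself, relative to its mean over the 8 arrays, was -0.84, -0.18, 0.03 and -0.22 in 5 mM replicates 1 to 4, against -0.02, 0.97, 0.03 and 0.23 in 0 mM replicates 1 to 4. TNF read -5.10, -4.32, -4.12 and -4.48 in 5 mM replicates 1 to 4, against -4.08, -2.56, -4.30 and -4.10 in 0 mM replicates 1 to 4, with 0 mM replicate 2 far above the rest. The CD3 mean took each chain by its brightest probe. For CD3D this was probe 3, whose values are uncertain and whose r with CD3E was -0.636. The 6 genes were picked for following a mean lowest in 5 mM replicate 1 and highest in 0 mM replicate 2. Their differences between the groups are therefore not independent of that mean. Over all 6 genes the differences lay between -1.20 for ISG20 and -0.33 for TSHB, and none passed (adjusted p = 0.913 for each). Without 0 mM replicate 2 they were -0.60 for ISG20, -0.15 for TSHB, -0.44 for GRO1, -0.34 for TNF, -0.24 for TRAF3IP3 and -0.42 for EVI2A, and without 5 mM replicate 1 those of GRO1 and TSHB were -0.55 and -0.22. With normexp ISG20 was at -0.29, GRO1 at -0.39 and TNF at -0.38. ISG20 was well above background in 2 of 4 cows given 5 mM and in 4 of 4 given 0 mM. With CD3D probe 2 in place of probe 3, the CD3 mean was -1.82 in 5 mM replicate 1 and 1.63 in 0 mM replicate 2. The 6 genes closest to that mean were CLEC1A, CD52, NLRC5, EVI2A, BoLA and STK17B, of which only EVI2A is on both lists.

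Other genes of T cells, and ligands of their receptors, made up 6 lists with 55 tested genes. Of the 55, 47 had a lower mean in the 5 mM group, against 48.4% of 13078 genes. The median difference of the 55 was -0.53, against 0.01 for all genes, and 5 had an unadjusted p under 0.05, as had 1.99% of all genes. None passed after adjustment over all probes. Without 5 mM replicate 1, 42 were lower with a median of -0.24 and 1 with an unadjusted p under 0.05, and without 0 mM replicate 2 these values were 40, -0.28 and 1. With normexp 44 were lower, with a median of -0.21. The lists were chosen with earlier results of these data known, so these counts only describe them.

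Among genes of T cell receptor signalling, 9 of 11 tested were lower, with a median of -0.59. SIT1, a transmembrane adaptor that dampens T cell receptor signals, read -2.09, -1.48, -1.14 and -1.31 in 5 mM replicates 1 to 4, against -1.16, 0.34, -0.99 and -0.75 in 0 mM replicates 1 to 4. Its difference was -0.87 ± 0.36 (SE, limma, unadjusted p = 0.0425), and -0.54 without 0 mM replicate 2. The adaptors FYB1 and LCP2 differed by -0.73 ± 0.31 (SE, unadjusted p = 0.0465) and -0.55 ± 0.26, and FYB1 was at -0.46 with normexp. CD247, the zeta chain of the receptor complex, stood the other way at 0.41 ± 0.28, and the kinase genes LCK and ZAP70 lay at -0.59 ± 0.32 and -0.33 ± 0.26.

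All 6 tested costimulatory and inhibitory receptor genes were lower, with a median of -0.35, while 11 of the 17 listed, among them CD28 and CTLA4, were not tested. HAVCR2, which encodes the inhibitory receptor TIM-3 of T cells and myeloid cells, read -2.10, -2.26, -2.98 and -2.24 in 5 mM replicates 1 to 4, against -1.78, -1.76, -1.52 and -1.26 in 0 mM replicates 1 to 4. All cows given 5 mM lay below all cows given 0 mM, as happened for 0.524% of all probes, with a difference of -0.81 ± 0.23 (SE, unadjusted p = 0.00751, adjusted p = 0.913). A second tested HAVCR2 probe differed by -0.32, which makes a mean of -0.57 over both. CD96 differed by -0.71 ± 0.57 and SLAMF1 by -0.44 ± 0.58, with CD96 at -0.17 without 5 mM replicate 1 and SLAMF1 at 0.12 without 0 mM replicate 2, while a second SLAMF1 probe differed by -0.13.

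Of the 4 tested ligand genes of these receptors, 3 were lower, with a median of -0.23. CD48, a CD2 ligand in rodents, read -0.56, 0.33, -0.29 and -0.17 in 5 mM replicates 1 to 4, against 0.04, 1.69, 0.64 and 0.54 in 0 mM replicates 1 to 4, a difference of -0.90 ± 0.36 (SE, unadjusted p = 0.0371). It was -0.58 without 0 mM replicate 2. CD58, the CD2 ligand of humans, differed by 0.16 ± 0.34, and by -0.09 without 5 mM replicate 1. CD86, a costimulatory ligand of CD28, differed by -0.28 ± 0.32, with its other tested probes reaching -0.72.

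The cytotoxic effector genes that accompany granzyme B were lower in 9 of 11 cases, with a median of -0.57, and none had an unadjusted p under 0.05. KLRK1, the activating receptor NKG2D, differed by -0.89 ± 0.47, FASLG, the Fas ligand gene, by -0.76 ± 0.51, and CST7, which encodes the granule cystatin F, by -0.57 ± 0.34. FASLG was -0.27 without 5 mM replicate 1 and -0.14 with normexp, and KLRK1 was -0.44 with normexp. Leaving out 0 mM replicate 2 gave -0.51 for KLRK1 and -0.27 for CST7, leaving out 5 mM replicate 1 gave -0.55 and -0.37, and CST7 was at -0.21 with normexp.

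Among transcription factors of T cells, 9 of 10 tested were lower, with a median of -0.57. GATA3, a regulator of T cell development and of type-2 helper cells, read -4.12, -2.72, -4.36 and -4.31 in 5 mM replicates 1 to 4, against -3.14, -2.32, -3.09 and -3.12 in 0 mM replicates 1 to 4. The cow of 5 mM replicate 2 lay among the 0 mM cows and the other 3 below them all, a difference of -0.96 ± 0.39 (SE, unadjusted p = 0.0405) that was -0.48 with normexp. PRDM1 differed by -0.86 ± 0.57, and by -0.24 without 5 mM replicate 1. BCL6, a factor of follicular helper T cells and germinal centre B cells, was the 1 higher gene at 0.45 ± 0.28, and at 0.20 without 5 mM replicate 1.

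The homing and cytokine receptor genes were lower in 11 of 13 cases, with a median of -0.50, and none had an unadjusted p under 0.05. CCR7, the lymph node homing receptor, differed by -1.28 ± 0.69 (SE, limma, unadjusted p = 0.0999) and ITGAL, the integrin LFA-1 alpha chain, by -0.70 ± 0.39. Without 5 mM replicate 1 these were -0.67 and -0.34, and with normexp CCR7 was at -0.46. CXCR3 was not tested, while CXCL9, CXCL10 and CXCL11, whose products are its ligands, differed by -2.21 ± 0.67, -1.43 ± 0.37 and -1.33 ± 0.26, each without overlap between the groups, as in 0.524% of all probes. None of the 3 passed the adjusted test. CXCL11 was well above background in 2 of 4 cows given 5 mM and in 4 of 4 given 0 mM, and with normexp CXCL11 was at -0.24 and CXCL9 at -1.36.

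**Figure D4:**
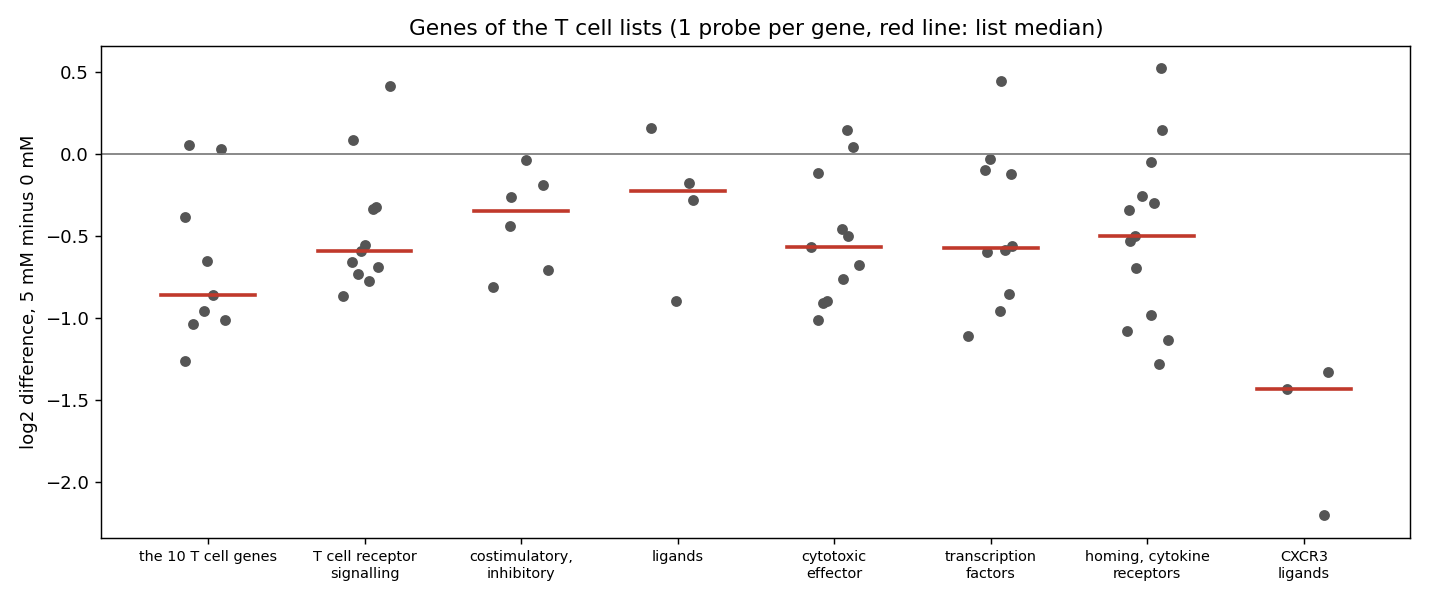
Log2 differences, 5 mM minus 0 mM (vertical axis), of the tested genes of each T cell list, 1 point per gene by its brightest probe, with a red line at the list median. Points lie mostly below 0, with a median of -0.86 for the T cell genes, -0.59 for receptor signalling, -0.23 for ligands and -1.43 for the 3 CXCR3 ligand genes.

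Markers of other cells were also read, and they did not all keep the same order of cows. Relative to the mean of the 8 arrays, the mean of the T cell genes was -0.94, -0.11, -0.27 and -0.03 in 5 mM replicates 1 to 4, against -0.22, 0.80, 0.23 and 0.55 in 0 mM replicates 1 to 4. The mean of 6 pan-leukocyte genes was -0.79, -0.05, -0.27 and -0.08 in 5 mM replicates 1 to 4, against -0.17, 0.61, 0.40 and 0.35 in 0 mM replicates 1 to 4, with 5 of the 6 lower. Both lists put 5 mM replicate 1 lowest and 0 mM replicate 2 highest. Macrophage markers were lower in 10 of 10 cases and ran from -0.85 to 0.23 in cows given 5 mM, against -0.66 to 0.83 in cows given 0 mM. Their highest mean was in 0 mM replicate 3. B cell markers were lower in 7 of 7 cases and ran from -1.15 to 0.01 in cows given 5 mM, against -0.24 to 1.44 in cows given 0 mM. For these B cell markers 5 mM replicate 2 was the lowest, and 5 mM replicate 1 was the highest of the cows given 5 mM.

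Epithelium markers were lower in 10 of 10 cases, at -3.41 in 5 mM replicate 1 and 0.31 to 0.51 in the other cows given 5 mM, against 0.28 to 0.86 in cows given 0 mM. On the array of 5 mM replicate 1, 8 of these 10 epithelium markers and 3 of 8 ciliated cell markers were well above background. Smooth muscle markers were higher in 9 of 10 cases, and ran from -1.38 to 2.68 in cows given 5 mM, against -1.64 to 1.26 in cows given 0 mM, highest in 5 mM replicate 1. Stromal markers were higher in 6 of 9 cases and ran from -0.23 to 0.95 in cows given 5 mM, against -0.47 to 0.07 in cows given 0 mM. Endothelial markers were higher in 3 of 5 cases. They ran from -0.15 to 0.28 in cows given 5 mM, against -0.38 to 0.19 in cows given 0 mM. All tested smooth muscle and stromal markers were well above background on all 8 arrays. The part of these cell mixtures in the T cell values was not tested.

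The cow of 5 mM replicate 1 often had the lowest or the highest signal over all tested probes. That cow had the lowest of the 8 signals for 10 of the 14 T cell probes and for 28.2% of all tested probes, and the highest for 34.0% of them. The cow of 0 mM replicate 2 had the highest signal for 8 of the 14 and for 12.7% of all tested probes.

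**Figure D5:**
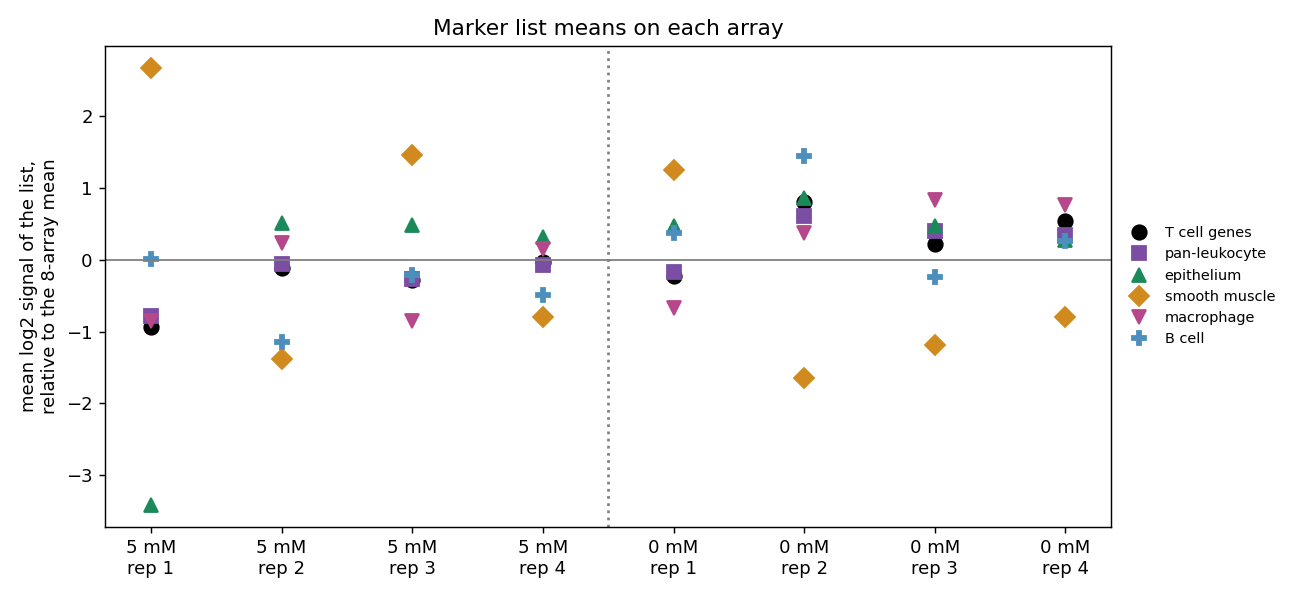
Mean log2 signal of each marker list on each array, relative to its mean over the 8 arrays (vertical axis), with the 5 mM cows left of the 0 mM cows. T cell genes (black circles) and pan-leukocyte genes (squares) lie close together on most arrays, lowest at -0.94 and -0.79 in 5 mM replicate 1, where epithelium is at -3.41 and smooth muscle at 2.68.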

How the data were processed

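Cy3-labelled RNA of each cow was hybridised to an Agilent array of design 023647, per the labels' protocols and the file headers. The deposited spot intensities are linear processed signals, background-subtracted and not scaled between arrays, per the file headers. The file headers give Feature Extraction 11.5.1.1, whereas version 10.5.1.1 is named in the submitters' processing notes. The deposited value table holds log2 values, whose scale, centring and direction were found from the scanner intensities shifted to the 75th percentile and centred on each probe's median (r across probes 0.999986 or higher), and served as an alternative. In replicate order, the medians of its columns were 0.13, -0.0049, -0.011 and 0.013 in the 5 mM group, and -0.016, -0.023, 0.00088 and -0.0062 in the 0 mM group. No column without a sample was present.

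Outlier-marked spots were dropped, spots of a probe averaged, and the log2 75th percentile of all noncontrol spots of the array, which lay between 1032 and 1456 intensity units, was subtracted. Probes well above background on at least 4 of 8 arrays were tested with limma 3.58.1 (lmFit, eBayes) in R 4.3.3, adjusted by Benjamini and Hochberg's method for 31108 probes. The median SE of a difference was 0.24, and the number of arrays limits the precision. The test was tried on simulated data. For lists a gene stands for its probe with the highest mean. Of 43653 probes, 8684 had no symbol, and names were updated through RefSeq identifiers (assembly ARS-UCD2.0). No genome was used here, and exons are not stated.

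Correlations used all 40320 pairings of the 8 cows, two-sided. Named were all T cell genes, the 3 lowest unadjusted p of each other T cell list, the 3 CXCR3 ligand genes and the 6 genes most like CD3, leaving out symbols that begin with LOC. The result of 1 gene so named is not reported here. Further genes (CD8B, CD247, LCK, ZAP70 and those named as not tested) were chosen after their values were seen. The T cell genes and the lists were chosen with earlier results of these data known. Alternatives were other normalizations and background correction, filters, array weights, slide and replicate blocks, and leaving out each cow.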

Additional observations from a re-analysis of the deposited data

Results flagged for a closer look

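Among 108 groups of 4 cows, 15 held 1 cow far from the other 3. All are drawn from the same 8 cows, so the 15 flagged groups cannot be set against the chance rate of about 1 in 20. Several fall on 5 mM replicate 1, which was far below the other cows given 5 mM for CD8A (-2.90, against -0.26 to 0.13), GZMB probe 1 (-2.07, against -0.74 to -0.51), FASLG (-7.14), ITGAL (-2.96), GRO1 (-6.07) and the epithelium mean (-3.41, against 0.31 to 0.51), and far above them for the stroma mean (0.95). The cow of 0 mM replicate 2 was far above the other cows given 0 mM for CD3D probe 1 (-4.78, against -6.19 to -5.98), KLRK1 (-2.58), TNF (-2.56), ISG20 (-3.25), TSHB (-1.44) and GATA3 (-2.32). GATA3 also had 5 mM replicate 2 far above the other cows given 5 mM (-2.72, against -4.36 to -4.12). CD86 had 0 mM replicate 1 far below the other cows given 0 mM (-2.38, against -1.27 to -1.11). TNF, ISG20, TSHB and GRO1 were picked for following the CD3 mean. That mean was lowest in 5 mM replicate 1 and highest in 0 mM replicate 2, so flags of these genes on those cows are not independent of it.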

How the results depend on the processing

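In every fit, whole-table or without 1 cow, 0 probes of the array passed an adjusted p under 0.05, and without 5 mM replicate 2 a single probe passed 0.1. The count of T cell probes with an unadjusted p under 0.05 was 1 of 14 in the main setting, against 1.91% of all probes. It was 0 with quantile normalization (2.07% of all probes in that fit), with normexp (1.69%) and with eBayes trend and robust settings (1.76%). Among the 10 probes well above background on all arrays it was also 0 (2.06%). Without a filter it was 3 of 26 (2.44%), and with slide as a block it was 4 (3.3%). Leaving out 1 cow gave 0 to 5, that is 5 on removing 0 mM replicate 1 (2.74% of all probes), 3 on removing 5 mM replicate 4 (3.42%), 2 on removing 5 mM replicate 3 (1.21%), and 0 on removing 5 mM replicate 1, 0 mM replicate 2 or 0 mM replicate 4 (1.94%, 1.29% and 1.66%). The median difference kept its sign throughout, from -1.04 without 0 mM replicate 1 to -0.36 with normexp.

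Cows with the same replicate number had deviations that correlated at 0.404, 0.357, -0.300 and 0.307, and replicates 1, 2 and 4 but not 3 matched best with their own number. Numbers 1, 2 and 4 shared a slide between the groups and number 3 did not, so number and slide cannot be told apart. The numbers were not taken to pair the cows. With a replicate block 8 of the 14 had an unadjusted p under 0.05, as had 3.93% of all probes in that fit, the median was -0.79 and 0 probes passed adjustment. The 3 passing pairs became 5 on group-centred values, 5 with the second CD3D probe, and 3 to 8 without 1 cow, with 8 without 5 mM replicate 3. With normexp 4 pairs passed, and of the 3 pairs of the main setting only CD3E with CD3G was among them. The others were CD5 with ICOS, CD5 with GZMB, and CD3D by its brightest probe with CD2, at a negative r of -0.909. The 47 lower genes of the T cell lists were 40 to 48 without 1 cow, and those with an unadjusted p under 0.05 numbered 1 to 9 without 1 cow, against 5, and 12 with slide as a block, where the share of all probes with such a p was 1.21% to 4.91% without 1 cow and 3.3% with slide as a block.

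Of 848 values of 40 single genes and probes under alternatives, 22 changed sign. CD3D probe 3 did so with array weights (-0.020), slide as a block (-0.016), within slide 3 (-0.15), without 1 cow (-0.11 to 0.20, below 0 without 5 mM replicate 1, 0 mM replicate 2 or 0 mM replicate 3) and as the mean over tested probes (-0.63). CD4 did so with normexp (-0.11), array weights (-0.070), within slides 2 and 3 (-0.0077 and -0.011), and without 1 cow (-0.13 to 0.13, below 0 without 5 mM replicate 1, 0 mM replicate 2 or 0 mM replicate 4). Within slide 1 GZMB probe 2 was at 0.21, SLAMF1 at 0.31 and CD86 at 0.65, within slide 2 CD58 was at -0.77 and BCL6 at -0.093, and within slide 3 CD96 was at 0.14. Without 1 cow SLAMF1 ran from -0.86 to 0.12, the highest without 0 mM replicate 2, and CD58 from -0.090 to 0.49, the lowest without 5 mM replicate 1. The cause was not tested. Within slides no call was made.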
